A study of Danio rerio with 54 samples.

Results

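Zebrafish embryos that lack functional Nfe2 were set against wildtype embryos after the same exposure to diquat, a redox-cycling herbicide, in the series dosed at 48 hours post-fertilization (hpf). The 6 libraries, 3 knockout and 3 wildtype, were taken by their genotype, agent and stage labels out of 54 in the series. Each library came from 1 pool of 30 whole embryos. Embryos sat in 20 µM diquat for 4 h and in clean medium for a further 4 h before freezing, per the labels' treatment protocol, while the sample descriptions call the RNA a 48 hpf sample. Wildtype fish were of the AB strain. The knockout line descends from 1 founder injected on an AB/TL hybrid background, so genotype and strain ancestry cannot be told apart in any difference below. Further pools of both genotypes, kept in water or in 1 mM tert-butyl hydroperoxide (tBOOH, an organic peroxide) at 48 hpf or in diquat at 2 and 96 hpf, serve as comparison and hold 3 libraries a group.

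Nfe2 is a basic leucine zipper transcription factor of the cap'n'collar (CNC) family, to which Nrf2 (nfe2l2a in zebrafish), the main activator of antioxidant genes, also belongs. CNC proteins bind DNA as partners of small Maf proteins. In mammals the NF-E2 complex was described from its binding at globin loci and is best known for its part in platelet formation, and zebrafish embryos already carry primitive red cells in the circulation at 48 hpf.

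The mutation was made with a pair of TAL effector nucleases (TALENs) directed at exon 3 of nfe2. The target sequences are shown because they place the allele that all knockout pools carry. The bases that the founder lost stand in capitals on a line of their own, and their position is not marked on the targets.
TALEN target 1: tcacccacctcttatgag
TALEN target 2: catgactacacgtggtca
Deleted bases: GCACATGA
The loss of 8 bases shifts the reading frame and brings a premature stop 13 amino acids on, before the DNA-binding domain, per the labels. A deletion of this size leaves the transcript countable, so the level of nfe2 mRNA does not check the genotype labels.

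The nfe2 values were 1.75, 2.66 and 0.944 normalised reads in the knockout diquat libraries and 0, 0 and 0 in the wildtype ones. Those values stand for 6 and 0 reads, and 0 reads in 3 libraries allows a mean of up to 0.987. Over the 9 libraries a genotype at 48 hpf, the knockout pools held 16 nfe2 reads and the wildtype pools 4. The gene was too low to be tested.

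Values are normalised read counts, that is, read counts per gene divided by 1 size factor per library. The 6 libraries held between 0.707 and 0.789 M counted reads, against about 25 M reads per sample stated by the submitters, and 9725 of 31953 genes reached a value of 10 in at least 3 of the 18 libraries of the stage and were tested. Library kits were directional, and no source used here says on which strand reads were counted. The mitochondrial gene mt-nd6, alone among the 13 mitochondrial mRNAs in lying on the light strand, had the highest value of the 13 in all 18 libraries, between 7013 and 13762 in the 6 diquat libraries, where the median of the other 12 lay between 704 and 1243. Whether a value counts reads of the gene's own strand or of the opposite strand was not tested and cannot be told here. A gene name below therefore stands for the locus that was counted, on either strand, and its value need not be the level of the mRNA. Defining markers of several tissues were near 0 in these libraries: hbbe1.1, an embryonic beta globin, reached at most 0.98 in wildtype, and fabp10a, a liver fatty acid binding protein, at most 1.89 in any of the 6. The muscle creatine kinase gene ckma (549 to 1380), the keratin gene krt4 (5102 to 7884) and the neuronal gene elavl3 (116 to 206) were well covered.

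Knockout replicate 2 stood apart from the other 5. Its mean correlation with the other 17 libraries of the stage was 0.887, against 0.905 to 0.916 for the other 5 diquat libraries. Its summed skeletal muscle level was 17424, against 28483 and 28618 in the other knockout libraries and 30012 to 33629 in wildtype. Its summed neuronal level was 6614, against 4275, 5091 and 4188 to 4328 in the same order. Medians and counts of lists that it moved by over 1.5 times, or whose direction it turned, are given with and without it.

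Under diquat, 110 of the 9725 tested genes (1.13%) differed between the genotypes, 46 higher (0.473%) and 64 lower (0.658%) in the knockout, in limma with Benjamini-Hochberg adjustment at an adjusted p under 0.05. An unadjusted p under 0.05 was found for 1147 genes. The differences that rose had a median size of 1.54 on the log2(value + 1) scale and those that fell a median of 2.39. That scale understates the change of genes near 0. Of the 64 lower genes, 30 reached a value of 10 in wildtype libraries only, and 13 of the 46 higher genes did so in knockout libraries only, so their entry into the test went with their difference. Over all tested genes, the 3 knockout and 3 wildtype diquat libraries did not overlap for 20.4%.

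Leaving out 1 of the 6 libraries gave between 55 and 89 genes: 55, 61 and 66 without wildtype replicate 1, 2 or 3, and 89, 58 and 81 without knockout replicate 1, 2 or 3. Of the 110 genes, 44 were called in each of these 6 fits, 17 higher and 27 lower. A later choice, leaving out knockout diquat replicate 2 together with the least typical knockout library of each other treatment, gave 102.

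Embryonic globin genes, alas2 of heme synthesis and genes of the red cell membrane fell in the knockout. Of 48 matched genes of an erythroid list, 23 were tested, and 9 of those were lower and 0 higher, beside 0.658% lower over all tested genes. The median difference of the 23 was -0.77, beside 0.00 over all tested genes, and 6 of the 23 reached a value of 10 in wildtype libraries only. Those 6 included 5 of the 9 called genes (alas2, hbbe1.2, hbbe2, hbbe3 and epb41b), which entered the test through the genotype in which they are high, so the count and the median describe the tested members and support nothing beyond the genes themselves. The other 4 called genes, hbae3, hbz, slc4a1a and cahz, reached that value in both genotypes. In the knockout, slc4a1a did so only in water replicate 2 (10.6) and cahz only in water replicate 1 (10.7). The filter asked for 3 libraries, so slc4a1a and cahz also entered the test through wildtype. Without knockout replicate 2, 7 were lower (hbbe1.2 and cahz no longer passed) and the median was -0.58. In these whole-embryo pools, fewer red cells and less RNA from these loci per red cell cannot be told apart.

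The largest fall of the list was in alas2, which encodes the red cell form of aminolevulinate synthase, the first enzyme of heme synthesis. Its values were 0.873, 2.66 and 1.89 in the knockout and 58.5, 59.4 and 43.1 in wildtype. Every knockout library lay far below every wildtype one, a difference of -4.32 ± 0.40 (log2, SE; adjusted p = 9.5e-07 in limma). The alad gene, for the next enzyme of the pathway, stood at 10.5, 5.31 and 7.56 against 45.4, 29.2 and 20.6, a difference of -1.87 ± 0.34 (adjusted p = 0.0048, and 0.060 without wildtype replicate 1). The pyridoxal kinase gene pdxka, whose product makes the cofactor that aminolevulinate synthase needs, stood at 1.75, 3.54 and 3.78 against 59.5, 35.0 and 49.0, a difference of -3.61 ± 0.34 (adjusted p = 1.0e-06). These last 2 genes, alad and pdxka, are not on the erythroid list and were picked out after their values were seen. A further tested heme synthesis gene of the list, cpox, stood at 6.11, 7.09 and 2.83 against 3.03, 10.7 and 6.86 (-0.25 ± 0.43, adjusted p = 0.86), with overlap between the genotypes. Of the untested ones, hmbsb overlapped as well, at 7.85, 9.74 and 6.61 against 9.08, 10.7 and 5.88, and hmbsa was lower in all 3 knockout libraries, at 6.11, 1.77 and 4.72 against 7.06, 9.73 and 7.84.

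The globin genes formed the largest group within the list. The alpha-type globin hbae3 stood at 22.7, 16.8 and 20.8 in the knockout and at 294, 197 and 212 in wildtype (-3.46 ± 0.50, adjusted p = 0.00031). The gene named hbz (ENSDARG00000045142), the highest of the globins counted, stood at 229, 104 and 115 against 1317, 861 and 1121 (-2.94 ± 0.38, adjusted p = 7.7e-05). In both, the highest knockout library lay well under the lowest wildtype library. The embryonic beta globins hbbe1.2, hbbe2 and hbbe3 differed by -3.16 ± 0.65, -3.09 ± 0.49 and -3.02 ± 0.40, with knockout values between 0.886 and 7.85 and wildtype values between 26.5 and 59.5. The call of hbbe1.2 was lost without wildtype replicate 1 or 2 or knockout replicate 2 (adjusted p up to 0.12 in limma), and those of hbbe2 and hbbe3 held without any 1 library. Globin genes are near-identical copies in clusters, and the counting may have split or dropped reads that fit more than 1 of them.

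One globin ran the other way. The hbbe1.1 gene, too low to be tested, stood at 8.73, 10.6 and 9.44 in the knockout and at 0, 0.973 and 0.980 in wildtype. These are 32 reads against 2. The alpha-type globin genes with the reference names hbae1.3 and hbae4, also untested, held 2 and 2 reads in the knockout and 27 and 15 in wildtype.

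Genes of the red cell membrane and of gas exchange were among the 9 as well. The anion exchanger gene slc4a1a stood at 4.36, 6.20 and 1.89 against 30.3, 34.1 and 42.1 (-2.91 ± 0.57, adjusted p = 0.010). The membrane skeleton gene epb41b and the carbonic anhydrase gene cahz differed by -2.44 ± 0.39 and -2.52 ± 0.52, again with no overlap between the genotypes. The call of slc4a1a was lost without wildtype replicate 2 or 3 or knockout replicate 3 (adjusted p up to 0.071) and that of cahz without any wildtype library or knockout replicate 2 (up to 0.11). Not every gene of the list did so. The Rh protein gene rhd, the most abundant of the list, stood at 1173, 1392 and 1196 against 1341, 1116 and 1197, a difference of 0.04 ± 0.18 (adjusted p = 0.95). That gene was also high enough to be tested at 2 hpf, before blood forms (0.97 in diquat, adjusted p = 5.5e-05 in limma). Its level therefore cannot be read as that of red cells alone. Of the 9 called genes, alas2 and cahz were tested at 2 hpf too, so the same limit holds for both. In diquat there alas2 had means of 0.778 in the knockout and 14.8 in wildtype (-3.36, adjusted p = 3.5e-05 in limma). The cahz gene differed there by 0.37 (adjusted p = 0.42). The ferritin gene fth1a differed by -0.52 ± 0.17 (adjusted p = 0.19), the biliverdin reductase gene blvrb by -1.54 ± 0.41 (adjusted p = 0.078) and the spectrin gene sptb by -0.57 ± 0.70 (adjusted p = 0.79). The red cell transcription factor gene tal1 differed by 0.02 ± 0.45, and klf1, untested, held 1 read in the knockout and 13 in wildtype.

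**Figure D1:**
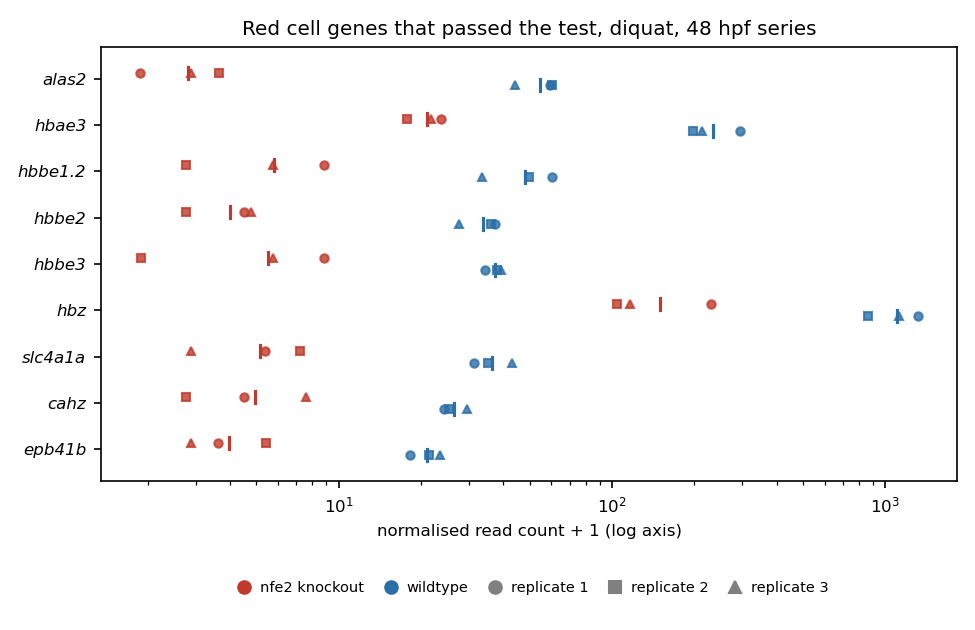
Normalised read count + 1 (log axis) of the 9 red cell genes that passed the test, in the 3 knockout (red) and 3 wildtype (blue) diquat libraries; marker shapes are replicates and vertical ticks are group means. In each gene the 3 knockout libraries lie below the 3 wildtype ones, from alas2 at the top (0.873 to 2.66 against 43.1 to 59.4) to epb41b at the bottom.

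The red cell difference was also present without diquat. In water alas2 stood at 3.90, 5.69 and 3.2 in the knockout and at 24.4, 24.9 and 21.5 in wildtype (-2.25, adjusted p = 0.0034), and in tBOOH at 1.82, 1.97 and 0 against 28.8, 30.1 and 17.8 (-3.67, adjusted p = 9.4e-06). The list had 5 lower and 0 higher genes in water (median -0.88; 0.977% of all tested genes lower) and 9 lower and 0 higher in tBOOH (median -0.73; 0.617% lower). The hbz difference did not pass in water (-1.35, adjusted p = 0.062) and passed in tBOOH (-3.26). The summed level of the list was 1746 to 1868 in knockout diquat libraries and 2920 to 3780 in wildtype diquat libraries. In water it was 1904 to 2218 in knockout and 2220 to 2806 in wildtype libraries, so the genotypes nearly met there. Most of the sum came from rhd and hbz. Of mean sums in diquat of 1819 in the knockout and 3318 in wildtype, rhd held 1254 and 1218 and hbz 149 and 1100. The difference between knockout and wildtype in diquat less that in water was -2.07 for alas2 (log2; 95% interval -3.24 to -0.90), with an adjusted p of 0.99 in limma over all tested genes. For hbz it was -1.60 (-2.70 to -0.49), also with an adjusted p of 0.99, and neither passed.

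Blood cells other than red cells were sparsely covered. Of 43 matched neutrophil and macrophage genes 7 were tested and 1 was lower, beside 0.658% lower over all tested genes. That 1, the lysozyme gene lyz, stood at 13.96, 5.31 and 8.50 against 39.4, 43.8 and 30.4 (-1.99 ± 0.35, adjusted p = 0.0036). Thrombocytes are the fish counterpart of platelets, and only 1 of 24 matched thrombocyte genes could be tested. That gene, the transcription factor gene fli1a, which vessels also express, stood at 6.98, 9.74 and 5.67 in the knockout and 14.1, 11.7 and 11.8 in wildtype (-0.70 ± 0.31, adjusted p = 0.38), so it was lower in all 3 knockout libraries and did not pass. The integrin gene itga2b, a defining thrombocyte marker, was untested and stood at 6.98, 2.66 and 1.89 in the knockout and 0, 0 and 0 in wildtype, from 13 reads against 0. Its partner itgb3b stood at 7.85, 4.43 and 7.56 against 2.02, 1.95 and 2.94. These 2 untested genes, named after their values were seen, lay above wildtype in all 3 knockout libraries, while the summed level of the list overlapped between the genotypes, at 35.4 to 48.0 against 34.3 to 41.8.

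The antioxidant genes that Nrf2 is known to drive did not pass the test in either direction. Of 28 matched genes 19 were tested and 0 called, with 1.13% called over all tested genes, and their median difference was -0.11. Without knockout replicate 2 the median was 0.08 and again 0 were called, so the direction of the median turned on 1 library. The lowest adjusted p of the 19 was 0.078, for blvrb, which is on this list too. For 14 of them the 95% interval covered 0, and for 8 it lay within 1 log2 unit on either side, so for the remaining 11 a change of that size was not excluded at this depth. Among the best covered, the thioredoxin reductase gene txnrd1 stood at 55.0, 40.7 and 46.3 against 53.5, 40.9 and 53.9 (-0.06 ± 0.23). The glutathione transferase gene gstp1 stood at 50.6, 26.6 and 55.7 against 57.5, 42.8 and 51.0 (-0.24 ± 0.39). The genotypes overlap in both. The heme oxygenase gene hmox1a, for the enzyme that breaks down heme, stood at 33.2, 45.2 and 17.9 against 17.2, 11.7 and 14.7 (1.02 ± 0.36, adjusted p = 0.24), higher in all 3 knockout libraries but not past the threshold. The transketolase gene tktb differed by -0.30 ± 0.30. The quinone reductase gene nqo1 stood at 6.11, 3.54 and 7.56 against 12.1, 15.6 and 7.84 (-0.93 ± 0.42, adjusted p = 0.38).

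**Figure D2:**
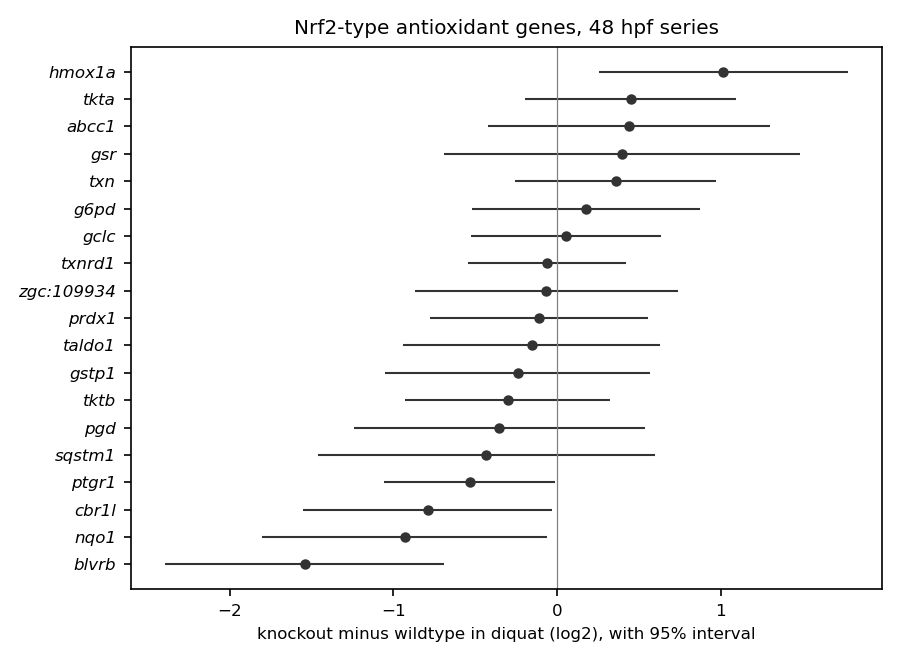
Difference between knockout and wildtype diquat libraries (log2, points) with its 95% interval (lines) for the 19 tested antioxidant genes. 14 of the intervals cross 0, and hmox1a (1.02) and blvrb (-1.54) lie at the ends.

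No other tested member of the CNC family and its partners passed. Of 16 matched genes 6 were tested and 0 called, with 1.13% called over all tested genes. The Nrf2 gene nfe2l2a stood at 34.9, 27.5 and 40.6 in the knockout and 33.3, 35.0 and 31.4 in wildtype (0.03 ± 0.31), and nfe2l3 at 49.7, 40.7 and 50.1 against 33.3, 51.6 and 49.0 (0.09 ± 0.21). The differences were 0.06 for nfe2l1b, 0.07 for the small Maf gene maff, -0.15 for keap1b, whose product holds Nrf2 in check, and -0.16 for the repressor gene bach2b. None of the tested glutathione enzyme genes (24), peroxide and superoxide enzyme genes (17), heat shock genes (24), p53 targets (11) or immediate early genes (17) passed. At a share of 1.13% over all tested genes, lists this short hold few calls or none, so these counts do not set them apart.

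Of the 46 higher genes, only dnajb9b, mybpc1 and sv2a belonged to any of the gene lists. The ciliary gene CFAP70 stood at 112.6, 246.2 and 190.8 in the knockout and at 0, 0 and 1.96 in wildtype, from 609 reads against 2 (6.93 ± 0.43, adjusted p = 2.5e-09). The ratio of the read rates was 278, with a 95% counting interval of 76.5 to 2297. The gene dnajb9b (ENSDARG00000016886), for a co-chaperone of the endoplasmic reticulum, stood at 165, 232 and 171 against 4.04, 4.86 and 2.94 (5.27 ± 0.26, adjusted p = 8.6e-11). In wildtype both genes were close to absent from the counts.

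The helicase gene dhx40 stood at 62.0, 55.8 and 55.7 against 3.03, 5.84 and 2.94 (3.62 ± 0.31), and the Elongator subunit gene ikbkap at 90.8, 86.8 and 72.7 against 9.08, 7.78 and 10.8 (3.05 ± 0.24). The cyclin F gene ccnf, for a substrate receptor of a ubiquitin ligase, stood at 243, 329 and 265 against 36.3, 46.7 and 39.2 (2.74 ± 0.30). In these 3 the lowest knockout library lay several times above the highest wildtype one. The lysosomal peptidase gene dpp7 stood at 695, 1100 and 717 against 282, 252 and 265 (1.62 ± 0.26), and the translation factor gene eif2b1 at 59.3, 80.6 and 62.3 against 26.2, 18.5 and 24.5 (1.51 ± 0.26). The slow-muscle gene mybpc1, for a myosin-binding protein, stood at 29.7, 35.4 and 19.8 against 2.02, 1.95 and 2.94 (3.13 ± 0.35). The calls of these 8 genes held in every fit with 1 library left out.

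Smaller rises that were called in the full fit were the mechanosensitive channel gene piezo2a.2 (1.29 ± 0.26), the nucleotide sugar transporter gene slc35a5 (1.17 ± 0.28), the succinate semialdehyde dehydrogenase gene aldh5a1 (1.15 ± 0.28), the matrix metallopeptidase gene mmp28 (0.98 ± 0.20) and the synaptic vesicle gene sv2a (0.97 ± 0.24). Their libraries did not overlap between the genotypes, but their calls were lost in at least 1 fit without 1 library. The size of the rise moved little over the 16 alternatives run, from 1.12 to 1.43 for piezo2a.2, 1.01 to 1.37 for slc35a5, 0.97 to 1.27 for aldh5a1, 0.90 to 1.07 for mmp28 and 0.77 to 1.09 for sv2a. Without 1 library the adjusted p in limma rose to as much as 0.11 for piezo2a.2 (without wildtype replicate 2 or 3 or knockout replicate 2) and 0.099 for mmp28 (without wildtype replicate 1 or 2 or knockout replicate 2). For slc35a5 it rose to 0.21 and for aldh5a1 and sv2a to 0.28 and 0.33, and most single libraries ended the call of these 3.

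Large falls outside the red cell genes were seen in a collagen, a glycolytic enzyme and several further genes. The collagen gene COL28A1 (ENSDARG00000076321) stood at 8.73, 10.6 and 13.2 in the knockout and 76.7, 72.0 and 49.0 in wildtype (-2.49 ± 0.31, adjusted p = 4.9e-05). The muscle enolase gene eno3, of glycolysis, stood at 43.6, 23.9 and 47.2 against 146, 196 and 155 (-2.13 ± 0.26, adjusted p = 4.7e-05), and ttc14 at 20.1, 18.6 and 17 against 52.5, 79.8 and 80.4 (-1.85 ± 0.23, adjusted p = 4.7e-05). These 3 calls held in every fit with 1 library left out, with the knockout below wildtype throughout.

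The ciliary and cell polarity gene wdpcp stood at 34.03, 10.6 and 40.6 against 248, 227 and 238 (-3.21 ± 0.72, adjusted p = 0.029), and the histone demethylase gene kdm6a at 46.3, 64.7 and 46.3 against 131, 101 and 89.2 (-1.02 ± 0.19, adjusted p = 0.0076). The call of kdm6a was lost without wildtype replicate 1 (adjusted p = 0.075), and that of wdpcp without any 1 library except knockout replicate 3 (up to 0.20). Smaller falls were seen for ufsp2, a processing peptidase of the modifier UFM1 (-1.40 ± 0.34), the prolyl isomerase gene fkbp9 (-1.40 ± 0.30), the myosin light chain gene myl12.1 (-1.07 ± 0.24), the respiratory complex I gene ndufb7 (-1.05 ± 0.22), the collagen-modifying gene crtap (-1.04 ± 0.23) and the actinodin gene and2 of the fin fold (-0.98 ± 0.22). Each of these 6 calls was lost without knockout replicate 2, among other libraries, with adjusted p values up to 0.22 for ufsp2 and myl12.1, 0.19 for and2, 0.17 for crtap and 0.13 for fkbp9 and ndufb7.

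**Figure D3:**
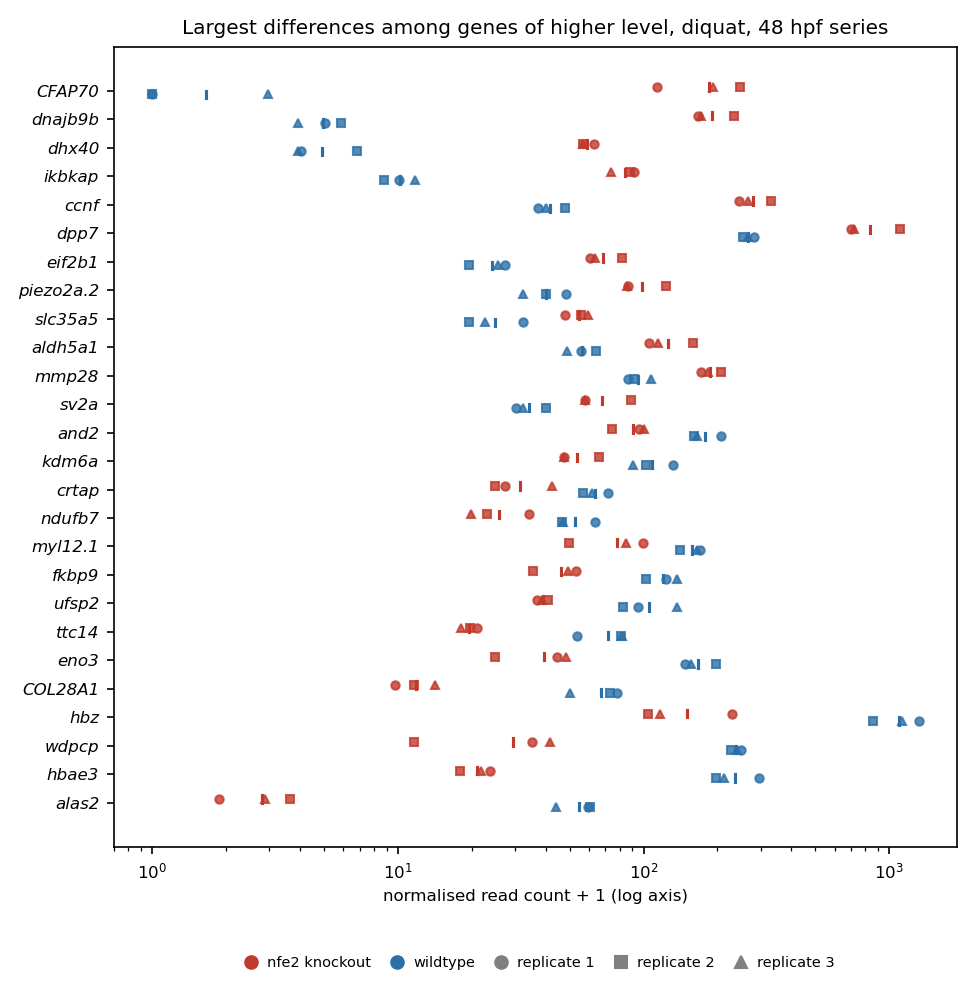
Normalised read count + 1 (log axis) of the genes with the largest differences among those whose mean in the higher genotype was 50 or more, in the 3 knockout (red) and 3 wildtype (blue) diquat libraries; shapes are replicates and ticks are group means. Genes higher in the knockout are at the top, led by CFAP70 (112.6 to 246.2 against 0 to 1.96), and genes lower in it at the bottom, ending with alas2.

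The genotype difference seen in diquat was largely shared with the other pools of the stage, which have no library in common with it. The comparisons were fitted together, however, and share 1 estimate of the spread per gene, so their calls are not independent. In water 242 genes (2.49%) were called, 147 higher (1.51%) and 95 lower (0.977%), and in tBOOH 94 (0.967%), 34 higher (0.35%) and 60 lower (0.617%). Of the 110 genes, 64 were called in the same direction in water, which is 58.2% of the diquat calls and 26.4% of the water calls, and 60 in tBOOH, which is 54.5% and 63.8%. In each case 0 were called in the opposite direction. These shares move with the other comparison's count: with 1 water library left out 73 to 808 genes were called in water and 38 to 71 of the 110 were among them, and with library weights 95 of the 110 were among 2406. With 1 tBOOH library left out 50 to 97 genes were called in tBOOH and 42 to 55 of the 110 were among them. With only the groups compared in the fit, 36 of the 110 were among 73 called in water, and 38 among 42 called in tBOOH. Again 0 had the opposite direction. The sign was the same for 109 of the 110 in water and for 106 in tBOOH, and the 3 knockout libraries lay wholly on the same side of wildtype for 89 in water (20.8% of all tested genes did not overlap there, in either direction) and for 90 in tBOOH (14.7%). Since both the diquat and the water comparison set the same knockout line against the same wildtype strain, this overlap holds for that pair of lines. The median difference of the 64 lower genes was -2.39 in diquat, -1.85 in water and -2.14 in tBOOH, and that of the 46 higher genes was 1.54, 1.36 and 0.97. The first of each is the measure that chose the genes.

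A set of 48 genes was called in all 3 treatments, 15 higher and 33 lower. The higher ones included CFAP70, dnajb9b, dhx40, ikbkap, ccnf, dpp7 and mybpc1, and the lower ones alas2, hbae3, hbbe2, hbbe3, epb41b, eno3, lyz, ttc14, fkbp9, kdm6a and the vimentin gene vim (-0.96 ± 0.16 in diquat). CFAP70 stood at 261, 150 and 226 in knockout water pools and at 0, 0 and 0.829 in wildtype ones. For dnajb9b the corresponding values were 262, 198 and 250 against 3.37, 2.93 and 4.97. The difference in diquat less that in water was -0.48 for CFAP70 (95% interval -1.74 to 0.78) and -0.39 for dnajb9b (-1.16 to 0.39).

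The test of whether the genotype difference in diquat departs from that in water called 0 of 9725 genes in limma, with a lowest adjusted p of 0.43. An unadjusted p under 0.05 was found for 388 genes. The count was also 0 with edgeR and with DESeq2 on the recovered reads, and 2 when limma weighted the libraries by quality. The 95% interval of this difference, not adjusted for the number of genes, reached 0.94 log2 units to each side for the median gene. Departures well above that size could also go uncalled, as that of alas2 did (-2.07, adjusted p = 0.99 in limma).

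Of the 110 genes, 11 were called in diquat and had an unadjusted p of 0.05 or more in both water and tBOOH. Those higher were IKZF4, SLC16A7, adgre5b.2, atp2b3a, nckipsd, sidt2 and soga3b, and those lower were GCA, cpne1, loxl2b and ndufb7. The calcium pump gene atp2b3a stood at 35.8, 54.03 and 46.3 in the knockout and 19.2, 30.2 and 18.6 in wildtype (0.99 ± 0.23, adjusted p = 0.040), and its differences were 0.38 in water and -0.17 in tBOOH. The lysyl oxidase gene loxl2b stood at 15.7, 12.4 and 25.5 against 42.4, 50.6 and 36.3 (-1.27 ± 0.28, adjusted p = 0.025), with -0.44 and -0.58. Each of the 11 calls was lost in at least 3 of the 6 fits with 1 library left out, with adjusted p values up to 0.25 for atp2b3a and 0.17 for loxl2b. For none of the 11 did the test against water pass, so a genotype difference particular to diquat was not shown.

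**Figure D4:**
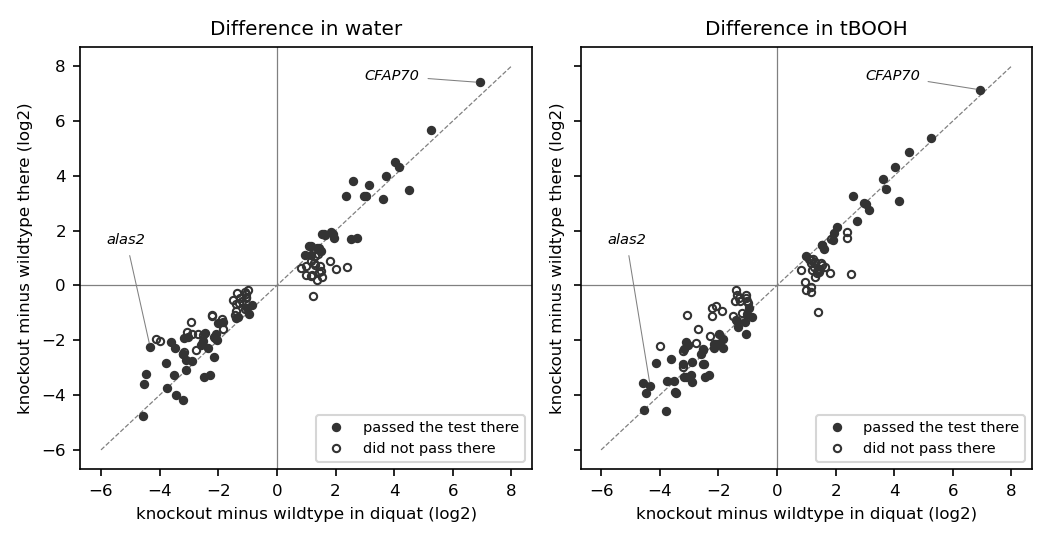
Each point is 1 of the 110 genes called between knockout and wildtype in diquat; the x axis gives that difference and the y axis the difference between the genotypes in water (left) or tBOOH (right), all in log2. Filled points passed the test there as well (64 and 60 genes), open points did not, and the dashed line marks equal differences.

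The same genes were followed to diquat pools dosed at other stages. At 2 hpf, when 45% of 7783 tested genes differed between the genotypes, 66 of the 110 were tested, 45 were called in the same direction and 5 in the opposite. At 96 hpf, when 14.1% of 11436 tested genes differed, 102 were tested, 66 were called in the same direction and 1 in the opposite. Of the 48 genes called in all 3 treatments, 35 were also called in diquat at 96 hpf and 20 in diquat at all 3 stages. Those 20 included CFAP70 (7.87 at 2 hpf and 8.05 at 96 hpf), dnajb9b (8.12 and 4.83), dhx40 (4.54 and 4.52) and alas2 (-3.36 and -1.64). The erythroid list held 6 lower and 1 higher of 23 tested genes at 96 hpf (7.81% lower and 6.28% higher over all tested genes there) and 2 lower and 2 higher of 9 tested at 2 hpf, before blood forms (21.2% lower and 23.8% higher). The antioxidant list, with 0 of 19 called at 48 hpf, held 17 lower and 0 higher of 25 tested genes in diquat at 96 hpf, with a median of -1.09, and whether the stages differ was not tested.

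Several of the called genes lie side by side among the tested genes that could be placed. In the gene order of the RefSeq assembly GRCz12tu, used for order only since the counts were made on GRCz10, 87 of the 110 could be placed by symbol among 8607 tested genes. They formed 13 pairs with no placed tested gene between them, which took in 21 genes, and in each of the 13 pairs both members had the same sign. Tested genes without a place could lie between them. Among pairs further apart, up to a reach of 5 genes, some had opposite signs. These included kdm6a and slc35a5 (-1.02 and 1.17) and tcirg1a and zgc:111983 (1.63 and -2.69). Lower together were alas2, ela2l and fhad1, the globins hbbe3, hbbe2 and hbz, the globins hbbe1.2 and hbae3, wdpcp and mdh1ab, and a run of 5 genes that ends in sytl1, fkbp9 and crtap. Higher together were CFAP70 and ccnf, si:dkey-257i7.5 and avpr2l, and tcirg1a and wu:fc21g02. The calls of tcirg1a and wu:fc21g02 were lost with single libraries left out (adjusted p up to 0.17 and 0.20), as were those of wdpcp, fkbp9 and crtap given above. The elastase gene ela2l, of the exocrine pancreas, stood at 4.36, 3.54 and 2.83 against 24.2, 23.4 and 27.4 (-2.52 ± 0.42, adjusted p = 0.0016). The forkhead-associated domain gene fhad1 held 0 reads in the knockout and 39 in wildtype and was at least 14.3-fold lower, with the floor of 3 reads taken over the knockout group. Conversely si:dkey-257i7.5 and avpr2l, a vasopressin receptor gene, held 0 reads in wildtype and were at least 22.4-fold and 17.9-fold higher. Where adjacent genes overlap, a read can fall on both. No source used here says how such reads were counted, and whether these genes overlap was not tested.

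Around nfe2 itself, 0 of the 20 nearest placed tested genes and 1 of the nearest 100 were called, and that 1 was eno3. On its chromosome 2 of 329 placed tested genes were called, eno3 and the zinc finger gene IKZF4, beside 87 of 8607 over all placed genes. Alleles linked to the mutation travel with it in the line, and their share in the difference cannot be told apart from that of nfe2.

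Few genes of the tissue lists passed the test, and the medians of several lists lay away from 0. Over all tested genes 0.473% were higher and 0.658% lower. Whether the few calls of a list, here and in the next paragraph, exceed that share was not tested. The summed levels of the neuronal, epidermal, heart, lens, photoreceptor, glial and exocrine pancreas lists overlapped between the genotypes, while those of the muscle, collagen, liver, intestine and vascular endothelium lists did not and were lower in the knockout. Skeletal muscle genes had 1 higher (mybpc1) and 1 lower (eno3) of 69 tested, with a median of -0.34 that was -0.08 without knockout replicate 2. Collagen and bone matrix genes had 1 lower of 46, the basement membrane collagen gene col4a3 (-1.05 ± 0.25, adjusted p = 0.040, lost without any 1 of 5 libraries, up to 0.23), a median of -0.63, and 43 of 46 below 0; without knockout replicate 2, 0 were lower and the median was -0.36. Their summed level was 5870, 3994 and 8007 in the knockout and 8152, 8849 and 8177 in wildtype. Neuronal genes had 1 higher of 69 (sv2a), a median of 0.34 and 61 above 0, with 0 called and a median of 0.19 without knockout replicate 2. The part of these shifts in the calls above was not tested.

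Liver genes had 0 of 38 called and a median of -0.99, which was -0.65 without knockout replicate 2, and 11 of the 38 did not overlap, all lower (10.8% over all tested genes). Their summed level was 1726, 926 and 1096 in the knockout and 2111, 1811 and 2005 in wildtype. Epidermal genes had 1 lower of 41 (and2) and a median of -0.45; without knockout replicate 2, 0 were lower and the median was -0.24. The 13 mitochondrial mRNAs were all above 0 with 0 called, a median of 0.40, and no overlap for 11 of them (9.54% over all tested genes for rises). Their summed level was 28118, 32935 and 27015 in the knockout and 25022, 21743 and 19046 in wildtype. Of 76 nuclear-encoded respiratory chain genes 1, ndufb7, was lower, beside 0.658% lower over all tested genes, and 0 without knockout replicate 2. Of 46 hypoxia and glycolysis genes 2 were lower, eno3 and the collagen prolyl hydroxylase gene p4ha1b (-1.10 ± 0.26, adjusted p = 0.043, up to 0.25 with 1 library left out), and without knockout replicate 2, 1 was lower. Of 40 genes of the unfolded protein response, dnajb9b was higher and the sensor kinase gene ern1 lower (-1.83 ± 0.43, adjusted p = 0.040), a call lost without any 1 of the 6 libraries, up to 0.17.

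**Figure D5:**
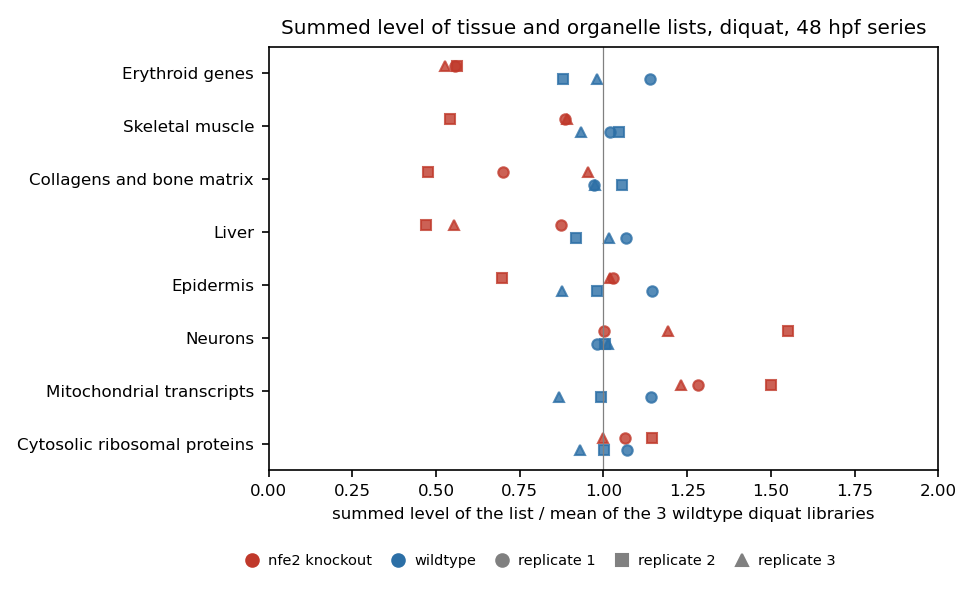
Summed normalised read count of 8 lists in each knockout (red) and wildtype (blue) diquat library, divided by the mean of the 3 wildtype diquat libraries (x axis); shapes are replicates. Erythroid sums of all 3 knockout libraries lie close together and below wildtype. Most of these sums comes from rhd (mean 1254 in the knockout and 1218 in wildtype) and hbz (149 and 1100). The muscle, epidermal and neuronal sums of knockout replicate 2 (squares) lie away from the other knockout libraries. The collagen sums of the knockout libraries are spread out, with replicate 2 the lowest.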

How the data were processed

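RNA-seq of whole-embryo pools was analysed from 1 deposited table. Per the labels' protocols, poly(A)-selected directional libraries were read as 50 base paired ends. The submitters' processing notes name FastQC 0.11.4, TopHat2 2.0.14, Bowtie2 2.2.5, SAMtools 0.1.19, HTSeq and DESeq2 1.10.1 in R 3.2.3 with build GRCz10. The table holds a signal per gene and library, deposited by the authors after each library's gene counts were divided by its size factor. Whole reads were recovered from it: with a tolerance of 0.01, 100% of values came out whole. In 3 of the 54 columns the size factor is within 1% of 1, so that check decides little there.

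The members and the 35 gene lists were chosen with earlier results of these data known. Of 1717 listed names 1647 matched; 4105 gene IDs share a symbol with another ID, and 50 have none. Log2(value + 1) was fitted with limma 3.58.1 (R 4.3.3; empirical Bayes with a mean trend) over the 18 libraries of a stage in 6 groups, for genes that reached a value of 10 in 3 or more libraries, two-sided, with Benjamini-Hochberg adjustment and a threshold of 0.05. Statistics were tested on simulated reads with 1 spread for all groups, whereas the spread of these pools differs between groups. Of 200 changed genes, 15 of 80 were called at 1 log2 unit, 72 of 80 at 2 and 40 of 40 at 3. Another 13 genes were called without a change. Errors are standard errors from this fit; intervals are at 95%, and intervals on reads cover counting error only. Named genes were nfe2 and its CNC list, up to 14 largest rises and falls among called genes with a mean of at least 50, no overlap and a symbol other than a clone name (12 rises met this), up to 4 called members of each list by smallest p, and the best covered members of the erythroid and antioxidant lists. Genes named outside that rule were chosen after their values were seen: members of gene runs, the 11 genes without a difference elsewhere, vim, alad, pdxka, cpox, fli1a and untested members. Alternatives were a pseudocount of 5, no filter, TMM rescaling, a replicate block, other sets of libraries, library weights, edgeR 4.0.16 and DESeq2 1.42.0 on the recovered reads, and leaving out each library. Nothing says that pools came from separate clutches, so p-values measure the spread between pools. Promoter motifs were not analysed here.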

Additional observations from a re-analysis of the deposited data

Results flagged for a closer look

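Genes named for their difference in diquat at 48 hpf were looked up in the diquat pools of the other stages. In 3 of them all knockout libraries lay on opposite sides of all wildtype libraries at 2 stages, and the difference between stages was not tested. The UFM1 peptidase gene ufsp2 was lower in the knockout at 48 hpf and higher by 1.75 at 2 hpf and by 0.94 at 96 hpf, as the difference of log2(group mean + 1). The nucleotide sugar transporter gene slc35a5 was higher at 48 hpf and differed by -1.15 at 2 hpf. It was too low to be tested at 2 hpf, with means of 2.56 in the knockout and 6.92 in wildtype. The collagen gene col4a3 was lower at 48 hpf and higher by 1.83 at 2 hpf. At 2 hpf 45% of tested genes differed between the genotypes.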

How the results depend on the processing

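The count of 110 genes in diquat at 48 hpf was 211 with library quality weights and between 55 and 89 with 1 library left out; with a pseudocount of 5, no filter, TMM rescaling, edgeR, DESeq2, other sets of libraries or without the libraries that stand apart it stayed within 1.5 times. In water the 242 genes became 2406 with library weights, 73 with only the groups compared, and 73 to 808 with 1 library left out. In tBOOH the 94 genes became 234 with library weights, 42 with only the groups compared, 163 without the libraries that stand apart (chosen after seeing the data), and 50 to 97 with 1 library left out. The test of diquat against water called 2 genes with library weights, mchr1b and myo10l1, and 0 otherwise in limma, edgeR and DESeq2. In diquat at 96 hpf 1611 genes became 694 with only the groups compared and 976 to 1869 with 1 library left out, and at 2 hpf 3501 ranged from 2921 to 3359 with 1 library left out. The cause of these moves was not tested.

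With the replicate number as a block, 97 genes were called (38 higher, 59 lower). The numbers did not pair the libraries: same-numbered libraries correlated in their deviations from the group means by -0.0096 on average (-0.54 to 0.57), and 7 of 18 libraries correlated best with their own number. Of 45 named genes, 33 were called, 17 of these under all 16 alternatives run for each gene, and 0 of the 33 changed sign. Many of the 33 were named for a lack of overlap between the genotypes, which leaves little room for a change of sign. Some uncalled genes with a difference near 0 did change sign, such as keap1b (-0.48 to 0.31).

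At 0.707 to 0.789 M counted reads per library, differences in genes under about 10 reads could not be tested, which took in nfe2, most thrombocyte genes and 10 of 16 CNC genes.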

Other observations

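Spread between replicates was larger in knockout than in wildtype pools. In a chi-square of reads over genes, the value per degree of freedom was 1.85 in wildtype and 4.28 in knockout diquat libraries, 3.76 and 7.67 in water, and 1.36 and 9.50 in tBOOH. The profile of knockout diquat replicate 2 recurred in other knockout pools. The summed skeletal muscle level was 13449, 27609 and 16884 in the 3 knockout water libraries and 16855, 27357 and 28799 in the 3 knockout tBOOH libraries, and lay between 28190 and 31982 in the 6 wildtype libraries of those treatments. The summed neuronal level was 7365, 4571 and 6159 and 6672, 4112 and 4017 in the same order, so libraries low in muscle were high in neuronal genes. The summed liver level was 954, 2616 and 871 in knockout water libraries and 1174 to 1449 in wildtype ones. In tBOOH it was 932, 5557 and 3207 in the knockout and 1244 to 1368 in wildtype. In these treatments the knockout libraries low in muscle were thus below wildtype in liver genes, and the other knockout libraries above it.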
